A study of Mus musculus with 2 samples.

Results

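Trefoil factors are small secreted peptides, and their 3 mouse genes, Tff1, Tff2 and Tff3, were followed here through the cells of 2 livers. The members were the rows of the gene table whose symbols are Tff1, Tff2 and Tff3, and each symbol matched 1 row, so all 3 members of 32285 genes were measured. They had been picked by their unique molecular identifier (UMI) counts in dendritic cells, cholangiocytes and other classes of these same livers, so the counts are given as a description, without a test. Tff1 and Tff2 are made chiefly by mucous cells of the stomach, where they are released together with gastric mucins, and Tff3 is the trefoil peptide of intestinal goblet cells. The peptides are resistant to proteases and are known for helping epithelia to close over injuries. Bile duct epithelium can also make trefoil peptides, along with mucins.

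Single-cell RNA sequencing had been carried out on hepatocytes and nonparenchymal cells of C57BL6 mice held for 16 weeks on an energy-rich diet, named HFD in the sample titles and WD in the treatment label. The control liver (WT, genotype label CTRL) carried no deletion. In the N-LKO liver (genotype label NgBR KO), exon 1 of Nus1, which encodes the cis-prenyltransferase subunit NgBR, was targeted by an albumin-driven Cre. The study describes this deletion as specific to hepatocytes. The N-LKO sample is labelled as liver plus tumor and received tumor cells at loading, whereas the WT sample is labelled as liver. With 1 library a group, genotype, tumor tissue and library cannot be told apart, no p-value is given, and every interval is a 95% interval that covers counting error only. Where a count is 0, the limit given is the level or share that a floor of 3 counts would make, which lies below the exact upper bound drawn in the plots.

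The WT library held 100171 barcodes with 85522287 UMIs and the N-LKO library 90147 barcodes with 87575064 UMIs. The filters kept 18434 barcodes of WT, at a median depth of 1401 UMIs, and 19851 of N-LKO, at 1454. The libraries had 2499 barcodes in common, of which 122 were kept in both. Levels are given in CPM, the UMIs of a gene relative to all UMIs of the class on the usual counts-per-million scale. Nus1 itself stood at 73.0 CPM in hepatocyte-like cells of WT and at 39.0 CPM in those of N-LKO, a log2 ratio of -0.90 (-1.14 to -0.68). Cells were assigned to classes by clusters computed without the members, and a class is called "X-like" from its marker genes. The 12 cholangiocyte markers were all highest in the cholangiocyte-like class in both libraries, the 10 hepatocyte markers were all highest in the hepatocyte-like class, and 10 (WT) and 9 (N-LKO) of 12 dendritic markers were highest in the dendritic-like class.

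The 3 genes lie side by side on the minus strand of chromosome 17 in the GRCm38 annotation, from which the positions are taken. Tff3 (ENSMUSG00000024029) spans 31125306 to 31129646 with 3 exons, Tff2 (ENSMUSG00000024028) spans 31141049 to 31144282 with 4 exons, and Tff1 (ENSMUSG00000024032) spans 31161395 to 31165277 with 3 exons. The antisense gene Gm15318, at 31152752 to 31163054 on the plus strand, overlaps Tff1, and whether the counting used strand is not given in the sources used here. No annotated gene overlaps Tff2 or Tff3.

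Over all deposited barcodes, the members differed both in the number of their UMIs and in how these were spread. Tff1 gave 144 UMIs in 19 WT barcodes and 5 UMIs in 5 N-LKO barcodes, and 126 of the WT UMIs, 87.5%, came from a single barcode. Tff2 gave 99 UMIs in 21 WT barcodes, 79 of them (79.8%) from that same barcode, against 80 UMIs in 69 N-LKO barcodes with at most 5 in any. Tff3 was the most widely detected member, with 709 UMIs in 700 WT barcodes and 1645 UMIs in 1459 N-LKO barcodes. No WT barcode held more than 2 Tff3 UMIs, whereas 1 N-LKO barcode held 9, and 99 N-LKO barcodes against 9 WT barcodes held 2 or more. Among the barcodes that the libraries had in common were 1 Tff1, 1 Tff2 and 14 Tff3 UMIs in WT and 0, 1 and 50 in N-LKO.

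**Figure D1:**
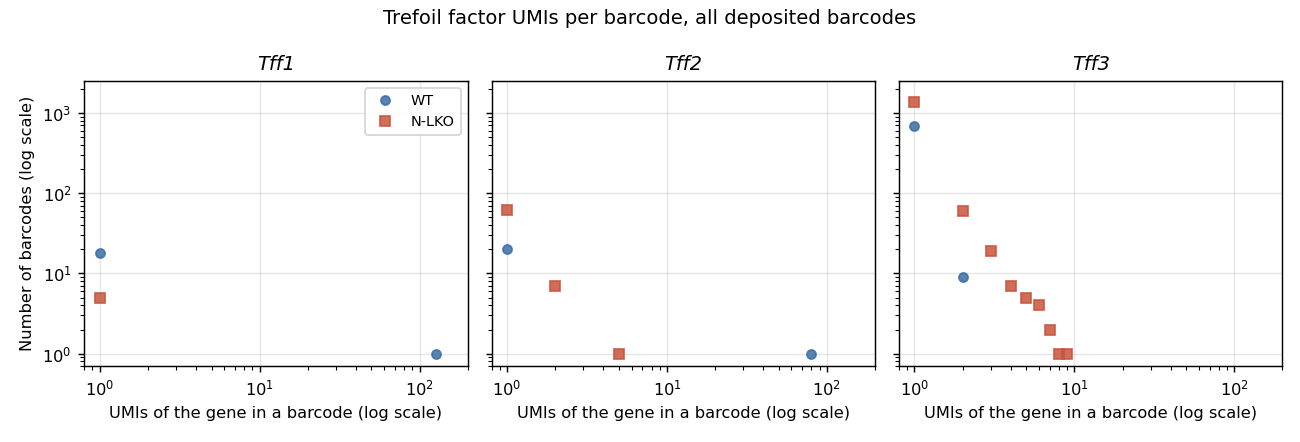
Number of deposited barcodes (log scale) by the UMIs of each trefoil gene that they hold (log scale), with WT as circles and N-LKO as squares. A single WT barcode stands far to the right for Tff1 (126 UMIs) and Tff2 (79 UMIs), while Tff3 reaches 2 UMIs in WT and 9 in N-LKO.

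In kept cells, the members were seldom found together. A single WT cell, out of 4 with Tff1 and 7 with Tff2, held both. No WT cell held Tff3 with another member, and of the 459 N-LKO cells with Tff3 and the 40 with Tff2, 1 held both.

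Tff1 and Tff2 were highest in the dendritic-like class of WT, and that level came from 1 cell. Tff1 stood at 363 CPM (302 to 432) among 210 WT dendritic-like cells and at 0 CPM, with 0 UMIs, among 486 N-LKO cells. Tff2 stood at 228 CPM (180 to 284) in WT and also at 0 in N-LKO. Against a floor of 3 UMIs per library, Tff1 was at least 108-fold and Tff2 at least 67.8-fold lower in N-LKO. All 126 Tff1 and all 79 Tff2 UMIs of the class were in the barcode described above. Without it both genes were at 0 in both libraries, so that no ratio could be given. Both met the call used throughout, a fold of at least 2 with an interval that leaves out no change, which 4.38% of the 11751 genes at 5 CPM or more in either library of this class met in the lower direction and 4.13% in the higher. As the members were chosen on these values, nothing is read from the comparison. Tff3 had 1 UMI in the WT dendritic-like cells and 8 in the N-LKO cells, 2.88 (0.0729 to 16.0) and 8.95 CPM (3.86 to 17.6), with overlapping intervals.

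The cell that carried them did not have the genes that define its class. It held 4132 UMIs and 1905 genes, 8.01% of its UMIs were mitochondrial, its doublet score was 0.173, and it was the deepest but 1 of the 210 cells, whose median was 1496.5 UMIs. Tff1 and Tff2 were its most abundant and second most abundant genes and together made up 4.96% of its UMIs, and Tff3 was at 0. None of the 12 conventional dendritic markers was detected in it, while those markers made up 1.22% of the UMIs of the other WT dendritic-like cells. The plasmacytoid dendritic, T and B marker lists were likewise at 0. Of the 12 genes on a list for gastrointestinal secretory epithelium, 4 were detected, with 47 UMIs or 1.14% of the total, and none was detected in the other WT dendritic-like cells. They were Gkn2 (25 UMIs) and Gkn1 (16 UMIs), which encode gastrokines secreted with Tff1 by gastric surface cells, the gastric mucin gene Muc5ac (5 UMIs), and Spink4 (1 UMI). Agr2, which encodes a disulfide isomerase that folds mucins, had 8 UMIs there and in no other WT barcode. The epithelial genes Epcam and Krt19 had 2 and 1 UMIs, and the other 10 cholangiocyte markers were at 0. Of the hepatocyte list 6 of 10 genes were detected, with 14 UMIs, and of the erythroid list 3 of 10, with 5 UMIs. The cell also held 16 UMIs from 7 of 10 proliferation markers, among them Mki67 and Top2a with 4 each. What this cell was, and how it came to be in the library, was not tested.

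**Figure D2:**
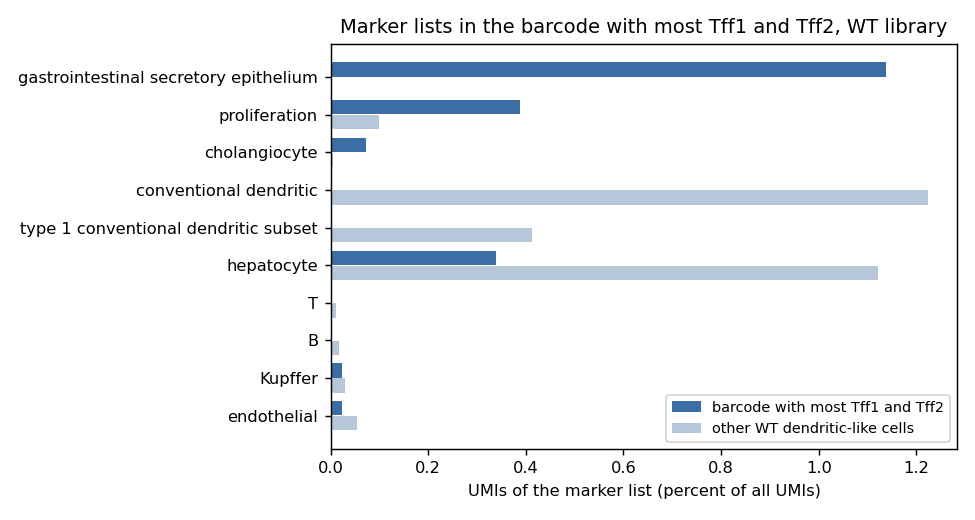
Share of all UMIs (percent, linear scale) taken by each marker list in the WT barcode with most Tff1 and Tff2 (dark bars) and in the other 209 WT dendritic-like cells pooled (light bars). The gastrointestinal secretory list takes 1.14% of the single barcode and 0% of the others, and the conventional dendritic list 0% against 1.22%.

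The gastrokines followed the same single barcode. Of all WT UMIs, 25 of 29 for Gkn2, 16 of 19 for Gkn1 and 5 of 5 for Muc5ac were in it. A further 38 WT barcodes held Tff1 or Tff2, each with 1 UMI, and 0 of these held Gkn1 or Gkn2. In N-LKO, Gkn1 and Gkn2 had no UMI in any barcode, and Muc5ac and Agr2 had 1 each.

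Tff2 was the trefoil gene of the cholangiocyte-like class, and there it was higher in N-LKO. It stood at 9.68 CPM (1.997 to 28.3) among 199 WT cells, from 3 UMIs in 3 cells. Among 501 N-LKO cells it stood at 43.1 CPM (30.8 to 58.7), from 40 UMIs in 33 cells. The N-LKO level was 4.45-fold that of WT, with a wide interval of 1.42 to 22.5 that reflects the 3 WT UMIs. The higher call was met by 4.3% and the lower by 4.49% of the 12499 genes compared in the class. This difference too was among the values by which the members were picked. No single cell carried the N-LKO level: 29 cells had 1 UMI, 3 had 2 and 1 had 5, and without that last cell the level was 37.8 CPM.

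After thinning every cell to 1000 UMIs, 1.01% (0.122 to 3.58) of WT and 3.59% (2.14 to 5.62) of N-LKO cholangiocyte-like cells held a Tff2 UMI, and the exact binomial intervals overlap. Unthinned, the shares were 1.51% and 6.59% at median depths of 1379 and 1608 UMIs. T and NK-like cells, a class that should lack the gene, had a Tff2 UMI in 0 of 1188 WT and 0 of 1919 N-LKO cells, which allows shares of up to 0.253% and 0.156%, at medians of 1190 and 1353 UMIs. Barcodes with under 500 UMIs were taken as a measure of free RNA, and how many of them were shallow cells was not tested. In them the WT level of Tff2 was 0.245 CPM (0.0297 to 0.885), from 2 UMIs, and the N-LKO level 0.164 CPM (0.00415 to 0.914), from 1. The upper bounds of both lie below the lower bounds of the cholangiocyte-like levels in the same libraries.

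Cholangiocyte-like cells fell into subsets that held mostly 1 library each, so Tff2 could be described within N-LKO but hardly compared between libraries. In N-LKO the level was 36.4 CPM (18.2 to 65.1) in 191 cells led by Adgrl3, 76.3 CPM (42.7 to 126) in 101 cells led by Cxcl1, 56.1 CPM (28.0 to 100.3) in 94 cells whose leading genes included Ccl5, Skap1 and Ptprc, and 31.5 CPM (6.50 to 92.1) in 52 cells led by the endothelial genes Stab2 and Kdr. These intervals overlap. In the remaining subset of 53 cells, led by Pid1, no Tff2 UMI was found, which allows up to 26.4 CPM. The 3 WT UMIs lay in 1 subset of 153 cells, at 13.2 CPM (2.72 to 38.5), and its leading genes, such as Mup17 and Fabp1, are hepatocyte genes. Leukocyte, endothelial and hepatocyte genes thus led some of these subsets, and their part in the Tff2 level was not tested. Hepatocyte markers made up 1.42% of WT and 0.930% of N-LKO UMIs in the class, and conventional dendritic markers 0.0420% and 0.0804%.

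**Figure D3:**
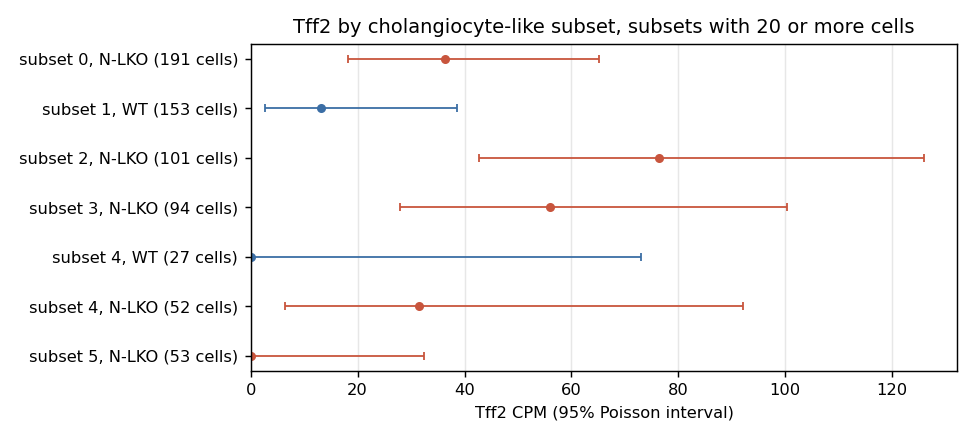
Tff2 level (CPM, linear scale, points with 95% Poisson intervals) in cholangiocyte-like subsets with 20 or more cells of a library, with WT in blue and N-LKO in red. The N-LKO subsets that hold Tff2 UMIs reach up to 76.3 CPM with overlapping intervals. The remaining N-LKO subset lies at 0 CPM, and the largest WT subset at 13.2 CPM.

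N-LKO cholangiocyte-like cells with a Tff2 UMI were deeper than those without, with medians of 1856 against 1594 UMIs. Against the cells without it, pooled over the same subsets, genes among those with the largest ratio were S100a6 (613 against 274 CPM, 2.24-fold), which encodes a calcium-binding protein, Tspo (368 against 184 CPM), the AP-1 component gene Jund (1.99-fold) and Tsc22d1 (1.92-fold). Each had between 21 and 40 UMIs in the cells with Tff2. They were picked for their ratio in these same cells, so the ratios are a description and support nothing further. The other trefoil genes were low in the class. Tff1 had 0 WT and 1 N-LKO UMIs. Tff3 had 0 UMIs in WT, allowing up to 9.68 CPM, and 10 in N-LKO, 10.8 CPM (5.17 to 19.8), close to its level in unrelated classes.

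Tff3 was the member with the most UMIs in hepatocyte-like cells, and its N-LKO level there was the highest of any class. In WT it stood at 9.64 CPM (8.21 to 11.2), from 162 UMIs over 9955 cells. In N-LKO it stood at 71.8 CPM (64.2 to 79.9), from 331 UMIs over 2097 cells. The ratio was 7.44-fold (6.15 to 9.04), and the intervals of the levels do not overlap. These intervals take each UMI as independent, whereas many N-LKO UMIs lay together in the same cells, as described below. As counts in other classes also served to pick the members, nothing is read from the comparison. The higher call was met by 5.48% of the 9928 genes compared in hepatocyte-like cells and the lower by 3.26%, and the median log2 ratio over these genes was 0.04. Tff1 and Tff2 were too low to be compared, with 2 and 1 WT UMIs and 0 and 3 N-LKO UMIs.

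The UMIs were also packed differently. In WT, 152 cells held 1 Tff3 UMI and 5 held 2, so 6.17% of the Tff3 UMIs were in cells with 2 or more. In N-LKO, 110 cells held 1 UMI and 69 held 2 to 9, and those 69 cells carried 66.8% of the UMIs. At 1000 UMIs a cell, 0.824% (0.656 to 1.02) of WT and 5.53% (4.59 to 6.60) of N-LKO cells held a Tff3 UMI, and unthinned 1.58% and 8.54%, at medians of 1519 and 1931 UMIs. In T and NK-like cells, which should lack Tff3, the thinned shares were 1.01% (0.523 to 1.76) in WT and 1.15% (0.720 to 1.73) in N-LKO, and the unthinned shares 1.01% and 1.56%. The thinned WT share in hepatocyte-like cells was not above that of T and NK-like cells, and the intervals overlap, so no expression is read from that share alone, whereas the interval of the N-LKO share lay above that of T and NK-like cells.

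The libraries filled different hepatocyte-like clusters, and the N-LKO level belonged to 1 of them. WT cells were mostly in clusters 0, 9 and 17, at 10.3 (8.69 to 12.1), 6.32 (2.89 to 11.99) and 4.56 CPM (0.940 to 13.3). N-LKO cells were mostly in cluster 6, where 1979 cells stood at 75.2 CPM (67.3 to 83.8) and the 117 WT cells held 1 UMI, 4.47 CPM (0.113 to 24.9). All 331 N-LKO UMIs were in that cluster, and the 95 N-LKO cells of cluster 0 held 0, which allows up to 17.9 CPM. A further cluster of 2415 N-LKO cells had hepatocyte genes but was left unnamed because its marker score was low, and its Tff3 level was 10.0 CPM (7.38 to 13.4), close to that of WT. Counting it among the hepatocytes brought the N-LKO level to 40.7 CPM and the ratio to 4.23-fold (3.51 to 5.12).

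Within cluster 6, Tff3 varied between subsets, which were formed after these values were seen. It was highest, at 166 CPM (137 to 200.5), in 259 N-LKO cells led by Spp1, Cxcl1, Spink1 and Ubd. Spp1 encodes osteopontin, which cholangiocytes and injured or transformed hepatocytes secrete, and Ubd encodes a ubiquitin-like protein induced by inflammatory cytokines. The subset led by periportal genes such as Cyp2f2 and Hal stood at 46.3 CPM (35.6 to 59.1) and the subset led by pericentral genes such as Cyp2c29 and Glul at 51.2 CPM (39.2 to 65.8). A subset led by Lars2 and Gm42418 stood at 87.9 CPM (61.3 to 122), and a subset led by macrophage genes such as Tyrobp and C1qc at 90.7 CPM (67.9 to 119). The 65 cells led by mitotic genes such as Top2a and Mki67 stood at 43.6 CPM (18.8 to 85.9). The interval of the highest subset overlapped none of the others, and every N-LKO subset lay above the WT interval of 8.21 to 11.2 CPM. Cholangiocyte markers took 0.0214% of the hepatocyte-like UMIs in WT and 0.0805% in N-LKO, against 1.24% and 1.09% in cholangiocyte-like cells, and proliferation markers 0.00259% and 0.0140%. Their part in the Tff3 level was not tested.

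**Figure D4:**
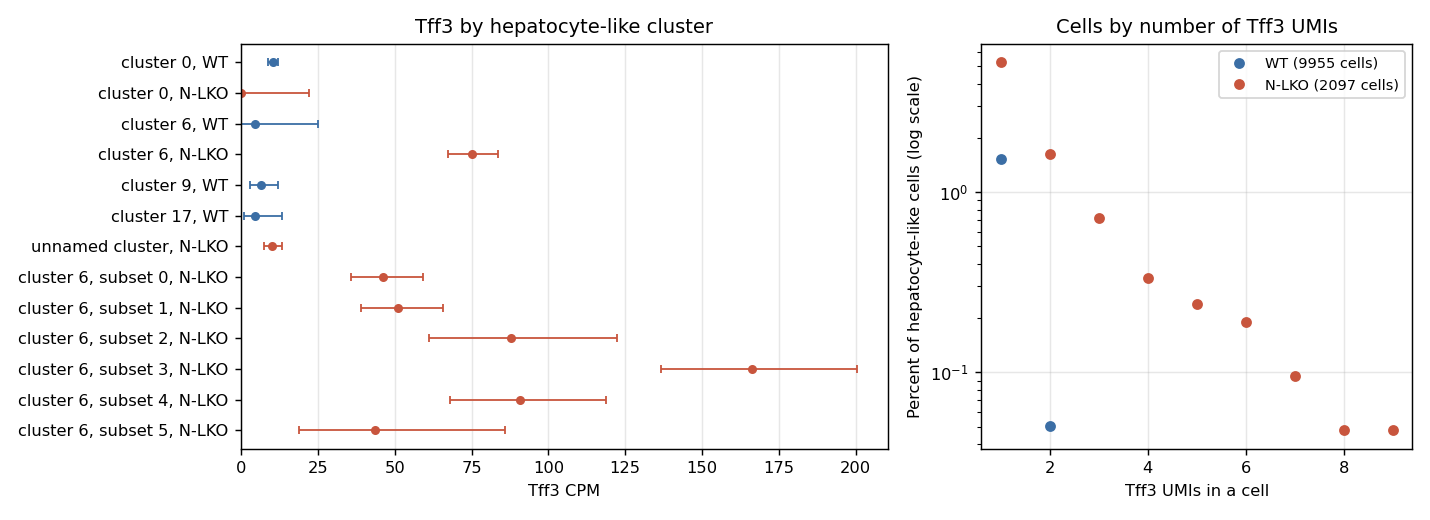
Left, Tff3 level (CPM, linear scale, points with 95% Poisson intervals) by hepatocyte-like cluster, in the unnamed N-LKO cluster and in subsets of cluster 6, with WT in blue and N-LKO in red. Right, percent of hepatocyte-like cells (log scale) by the number of Tff3 UMIs in a cell. Cluster 6 stands at 75.2 CPM in N-LKO, its Spp1-led subset (subset 3) at 166 CPM, and cells with more than 2 UMIs occur in N-LKO alone.

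Cells of cluster 6 with a Tff3 UMI were set against the cells without one, pooled over its subsets and not matched within them. The gene rule was extended to this class after its values were seen. In N-LKO the largest ratios were for Spink1 (258 against 36.8 CPM, 6.99-fold), a secreted trypsin inhibitor gene, H19 (94.8 against 14.0 CPM, 6.75-fold), an imprinted RNA of fetal liver, Ubd (3.93-fold), the glutathione transferase gene Gsta1 (2.51-fold) and Hamp2 (2.38-fold), a hepcidin gene. H19 stood at 14.0 CPM (10.6 to 18.2) in the 1800 cells without Tff3, 43.6 CPM (21.8 to 78.0) in the 110 with 1 UMI and 176 CPM (117 to 254) in the 69 with 2 or more. Spink1 stood at 36.8 (31.1 to 43.3), 131 (90.0 to 184) and 459 CPM (359 to 576) in the same cells. For Ubd and Gsta1 the intervals of the cells with 1 and with 2 or more UMIs overlapped, and for Hamp2 those of the cells with none and with 1. All 5 genes were picked for their ratio in these same cells of 1 library, so that their order by Tff3 count is a description and supports nothing further. Spink1 and Ubd were also among the leading genes of the subset with the highest Tff3 level. The part of subset membership in these ratios was not tested. Hepatocyte markers made up 4.17%, 4.82% and 5.13% of UMIs and cholangiocyte markers 0.0801%, 0.103% and 0.0729%, at medians of 1956.5, 2155 and 2192 UMIs.

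Outside hepatocyte-like cells, Tff3 was low in every class. Its level ran from 0 to 7.65 CPM in WT, the highest being T and NK-like cells at 7.65 CPM (3.95 to 13.4), whose interval overlaps that of WT hepatocyte-like cells. In N-LKO it ran from 0 to 14.9 CPM, the highest being endothelial-like cells. In each class with over 3 UMIs in either library the N-LKO value was the higher of the 2. It was 1.19 (0.144 to 4.30) against 14.3 CPM (8.17 to 23.2) in hepatic stellate-like cells, 0 against 13.9 CPM (8.09 to 22.2) in B-like cells, 6.003 (3.28 to 10.1) against 14.9 CPM (10.5 to 20.4) in endothelial-like cells, and 3.46 (1.79 to 6.05) against 8.09 CPM (6.28 to 10.3) in macrophage-like cells. In T and NK-like cells the levels of 7.65 and 10.2 CPM (6.89 to 14.6) overlapped. Neighbours in these orders were not separated by their intervals, apart from the step up to N-LKO hepatocyte-like cells.

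Barcodes with under 500 UMIs, taken as the measure of free RNA, held Tff3 in both libraries, and its level was higher in N-LKO there too. There Tff3 stood at 11.4 CPM (9.19 to 14.0) in WT and 22.6 CPM (19.01 to 26.7) in N-LKO, above the point values of all named non-hepatocyte classes in each library. The WT value was also above that of WT hepatocyte-like cells, 9.64 CPM (8.21 to 11.2), with overlapping intervals. The N-LKO value lay below the 71.8 CPM of N-LKO hepatocyte-like cells. If free RNA made up the largest share that other classes' markers allow, 47.0% (WT) and 21.1% (N-LKO) of the UMIs of hepatocyte-like cells, it would supply 5.35 and 4.78 CPM of their Tff3 at its measured level, below the levels of 9.64 and 71.8 CPM counted. The same estimate gives 3.92 CPM for N-LKO endothelial-like and 6.65 CPM for N-LKO hepatic stellate-like cells, under the levels counted there. It was also exceeded in T and NK-like cells, which should lack Tff3. Those stood at 7.65 CPM (3.95 to 13.4) against 3.57 CPM in WT and at 10.2 CPM (6.89 to 14.6) against 4.19 CPM in N-LKO. In N-LKO cholangiocyte-like cells the interval of 5.17 to 19.8 CPM took in the estimate of 6.79 CPM. Exceeding the estimate is therefore not, by itself, read as expression. How much of the remainder is droplets holding more than 1 cell was not tested.

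**Figure D5:**
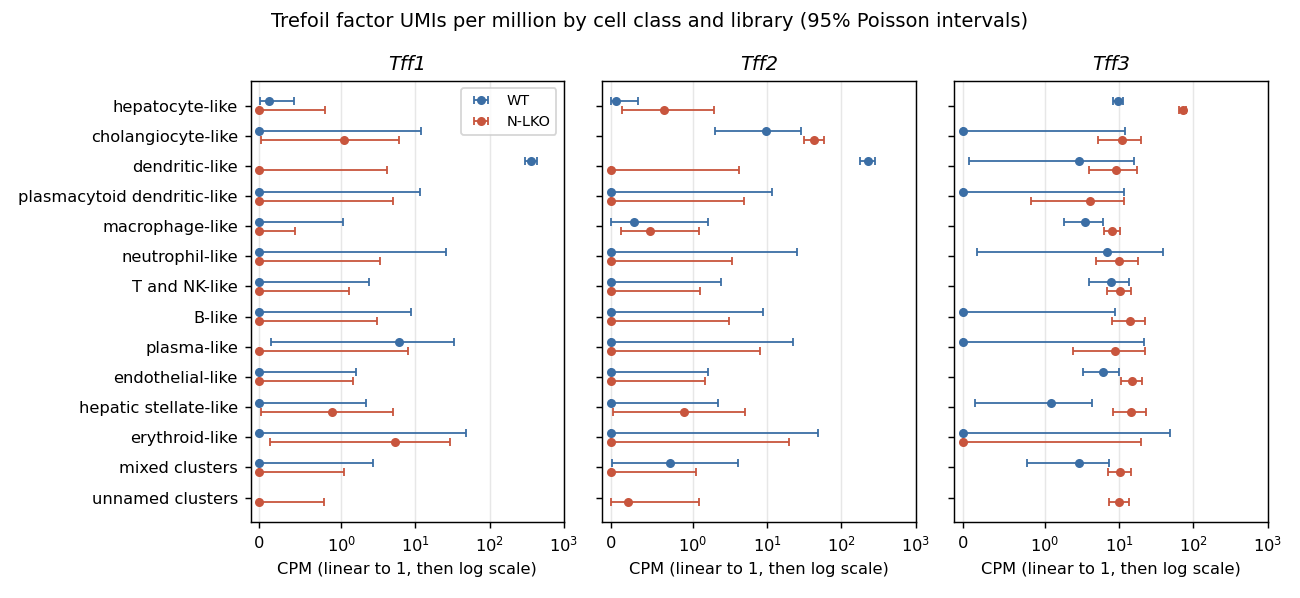
Level of each trefoil gene (CPM, linear to 1 and logarithmic above) by cell class, with WT in blue, N-LKO in red and 95% Poisson intervals. WT dendritic-like cells stand out for Tff1 and Tff2 (363 and 228 CPM, 1 cell), cholangiocyte-like cells for Tff2 (9.68 and 43.1 CPM) and N-LKO hepatocyte-like cells for Tff3 (71.8 CPM).

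Among genes that act with trefoil peptides, the secreted partners were scarce, while several receptor and regulator genes were plainly detected. A list of 32 genes held 9 ligand partners, 7 receptor candidates, 10 regulators and chaperones of secretory epithelium, and 6 surface mucins and related ductal genes. None of the 9 ligand partners had more than 29 UMIs over all barcodes of a library, whereas Egfr had 18027 in WT and 31397 in N-LKO and Runx1 had 4603 and 13602. In the dendritic-like class 14 of the 32 could be compared, of which 2 (Egfr and Klf4) were called higher and 5 (Gkn1, Gkn2, Muc5ac, Agr2 and Muc13) lower in N-LKO, beside the 4.13% and 4.38% of all genes given above, and the median log2 ratio was -1.73 against 0.02 for all genes. All WT UMIs of Gkn1, Gkn2, Muc5ac and Agr2 in that class were in the single barcode. The median of -1.73 includes these genes and was not recomputed without the barcode. Without it 10 genes could be compared, with the same 2 called higher and Muc13 alone called lower, from 5 WT and 2 N-LKO UMIs. Over the whole class, the barcode included, Egfr stood at 63.4 (39.7 to 95.9) and 158 CPM (133 to 186), and Klf4 at 25.9 (11.9 to 49.2) and 62.6 CPM (47.3 to 81.4).

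In the cholangiocyte-like class 11 could be compared, with 1 called higher, 2 called lower and a median of 0.00, as for all genes, beside the 4.3% called higher and 4.49% called lower over all genes of the class. None of the ligand partners reached the level to be compared there, and no UMI of Muc5ac, Muc5b, Muc2, Gkn1 or Gkn2 was found in it. Runx1, a transcription factor gene, was higher in N-LKO, at 19.4 (7.11 to 42.1) against 75.5 CPM (58.8 to 95.4). F2rl1, which encodes the protease receptor PAR2, was lower, at 45.2 (24.7 to 75.8) against 20.5 CPM (12.3 to 32.0), although these 2 intervals overlap. Pigr, the receptor that carries IgA into bile, was lower as well, at 668 (580 to 765) against 322 CPM (287 to 361). The duct mucin gene Muc1 stood at 25.8 (11.1 to 50.9) and 27.0 CPM (17.4 to 39.8). Foxa1 (19.4 and 16.2 CPM) and Foxa2 (38.7 and 38.8 CPM), endoderm factor genes, and Creb3l1 (12.9 CPM in both) also had intervals that overlapped widely.

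In hepatocyte-like cells 6 of the 32 could be compared, with 1 called higher, none lower, beside 5.48% and 3.26% of all genes, and the median log2 ratio was 0.10 beside 0.04 for all genes. Runx1 was again the gene called, at 14.5 (12.8 to 16.5) against 29.0 CPM (24.3 to 34.4). Foxa3 stood at 40.3 (37.3 to 43.4) and 65.3 CPM (58.1 to 73.1), short of a 2-fold difference. Egfr, a receptor through which trefoil peptides can signal, stood at 488 and 494 CPM with a log2 ratio of 0.02 (-0.05 to 0.08), and Pigr at 952 and 656 CPM. The chemokine receptor gene Cxcr4, whose product binds Tff2, was highest in neutrophil-like cells, at 69.2 and 65.5 CPM, and was scarce in hepatocyte-like (1.01 and 2.38 CPM) and cholangiocyte-like cells (3.23 and 5.39 CPM). In T and NK-like cells the WT level of Cxcr4 was 10.2 CPM and the N-LKO level 27.2 CPM.

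The genes next to the members mostly had their highest level in other classes than the members. Abcg1, a cholesterol exporter gene on the Tff3 side, was highest in N-LKO macrophage-like cells at 210 CPM and stood at 9.16 and 12.8 CPM in hepatocyte-like cells. Umodl1, beyond it, had 7 UMIs in the kept cells of each library, and AC165951.3 had 0. On the Tff1 side, Tmprss3 had 3 UMIs in each library and was highest in WT cholangiocyte-like cells, at 3.23 CPM, while Ubash3a was highest in WT T and NK-like cells at 52.2 CPM, and AC154652.1 was highest there as well, at 7.65 CPM. Gm15318, the antisense neighbour that overlaps Tff1, was at 0 in the WT dendritic-like cells where Tff1 stood at 363 CPM.

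Across 27 sums of a class in a library, the genes whose levels were most like each member are given as a description, since the sums share libraries and depth. For Tff3 they included Orm3 (r = 0.78), an acute phase gene, Prg4 (0.75), Gpat3 (0.74) and Rdh9 (0.74). For Tff2 they were Fxyd3 (0.69), Eif6 (0.67), Ccdc34 (0.66), Ccser1 (0.64) and the epithelial factor gene Ehf (0.63). For Tff1 they were Dhdds (0.69), Ift52 (0.62), Zfand2b (0.59), Prpf18 (0.59) and Rala (0.58). The highest level of Tff1 and of Tff2 among the sums is that of WT dendritic-like cells, which contains the single barcode, so both orders include it, and Ccser1 and all 5 genes given for Tff1 were highest in that sum too. In kept cells, 126 of the 129 WT Tff1 UMIs were in that barcode, and N-LKO had 3. Tff1 thus met the minimum of 20 UMIs for this description only through that barcode. With log2(CPM + 10), 0 of the 5 genes given for Tff1 stayed, so nothing is read from them.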

How the data were processed

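The 2 libraries were made with the 10x Genomics 3′ v3 kit. Per the file headers, the deposited UMI counts, whole numbers per gene and barcode, were written by Cell Ranger 7.1.0. The study's methods name filters on mitochondrial share, genes and UMIs without their limits, and the matrices hold 100171 WT and 90147 N-LKO barcodes with at least 326 and 377 UMIs. The submitters' processing notes name the build mm9, while 32158 of 32285 gene identifiers (99.6%) were found in GENCODE M21 (GRCm38), which gave the positions. Depth was 85522287 and 87575064 UMIs. PCR copies are collapsed by UMI, and intervals cover counting error only.

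Barcodes with at least 1000 UMIs, 400 genes and at most 30% mitochondrial UMIs were kept, and 1724 WT (8.55%) and 2363 N-LKO (10.6%) barcodes with a simulated-doublet score over 0.25 were removed. Principal components were computed in scanpy 1.11.5 on 2000 variable genes without the members, and cells were clustered with leidenalg 0.10.2. The 30 components and the resolution of 0.3 are those that the study names for its own clustering in Seurat. Clusters were named from 15 marker lists. A name needed a score of 0.2 and 3 raised markers, and no unrelated marker list could hold more of the leading genes than its own. A second class scoring over 0.7 of the first made a cluster mixed. These limits were set after the data were seen, so class sizes can differ from those of the study. UMIs were summed per class and library. Levels have exact Poisson, ratios exact conditional binomial and shares exact Clopper-Pearson intervals (scipy 1.17.1). Log2 ratios had 0.5 UMIs added to each sum, while folds had none. The call was checked on independent Poisson counts simulated from class means. That is the model its intervals assume, so the check does not cover UMIs packed into few cells.

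Genes named are the 3 members, the genes of a list of 32 partners with more than 3 UMIs in a class that the text turns on, the 5 genes most like each member, up to 3 annotated genes on each side, and, where 20 cells of a dendritic-like or cholangiocyte-like library held a member, the 5 genes with the largest ratio against cells without it. The members and lists were chosen with earlier results of these data known. No sequence is shown. Some genes that met the rule for named genes are not reported here.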

Additional observations from a re-analysis of the deposited data

Results flagged for a closer look

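Tff2 and Tff3 UMIs were also counted in the barcodes that failed the filters, which the comparisons between cell classes do not use, and both were higher in N-LKO there than in the control library. Tff2 stood at 0.248 CPM in WT (14 UMIs) and 0.570 CPM in N-LKO (31 UMIs), a log2 ratio of 1.17 (0.25 to 2.23). Tff3 stood at 8.88 CPM in WT (501 UMIs) and 18.9 CPM in N-LKO (1028 UMIs), a log2 ratio of 1.09 (0.94 to 1.25). Tff1 went the other way in these barcodes, at 0.266 CPM in WT (15 UMIs) and 0.0368 CPM in N-LKO (2 UMIs), a log2 ratio of -2.58 (-6.02 to -0.75).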

How the results depend on the processing

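No paired analysis was possible because each group has 1 library, so no replicate could be left out either. Ratios here are log2 of N-LKO over WT, with a side at 0 set to the floor of 3 UMIs. No called ratio that could be recomputed changed direction. Of all 205 recomputed values (levels, ratios, shares and counts of similar genes), 162 were close to the reported value and 43 moved further, where close means within the counting interval or, for the counts of genes, near the 5 named. The values counted as close include levels at 0 in every setting, such as Tff1 and Tff2 in N-LKO dendritic-like cells, with 10 values each. The called ratios of Tff1 and Tff2 in dendritic-like cells had no value, and are not among the 205, in the settings that left both libraries at 0. Those that remained all included the single barcode. The dendritic-like levels of Tff1 and Tff2 in WT were 0.0 CPM each without the single barcode, with a UMI minimum of 500 (which left it in an unnamed cluster) and with a doublet limit of 0.15 (which removed it). They were 84.8 and 53.2 CPM without a mitochondrial limit, 267 and 167 CPM at a resolution of 1.0, and 495 and 310 CPM after free RNA was subtracted. Their ratios of -6.76 and -6.08 became -5.39 and -4.72 with a mitochondrial limit of 10%. Tff2 in N-LKO cholangiocyte-like cells was 87.9 CPM with that limit and 61.5 CPM with free RNA subtracted, and its ratio of 1.95 ranged from 1.72 to 3.41. Tff3 in hepatocyte-like cells was 8.09 (WT) and 84.9 CPM (N-LKO) with free RNA subtracted, a ratio of 3.38 in place of 2.89. WT alone was 13.1 CPM with a UMI minimum of 2000 and 2.75 CPM with a mitochondrial limit of 10%, where, as with a UMI minimum of 500, the main N-LKO hepatocyte cluster lost its name and gave no ratio.

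The alternatives that follow were chosen after seeing the data. Naming without the rule on leading genes gave 12.8 and 59.8 CPM (ratio 2.21) with a UMI minimum of 2000 and 3.64 and 45.2 CPM (3.52) with a mitochondrial limit of 10%. Counting the unnamed cluster gave 40.7 CPM and 2.08, and cluster 6 alone gave 3.49. Unthinned shares were 6.59% for N-LKO Tff2, and 1.58% and 8.54% for Tff3. Of the 5 genes most like each member, 0 to 4 stayed under the other settings. A UMI minimum of 2000 left under 50 WT dendritic-like (48) and cholangiocyte-like (38) cells, so no WT level or ratio was given for these classes. Tff2 in N-LKO cholangiocyte-like cells was 37.4 CPM with that minimum. Depth limits Tff1 and Tff2, each with at most 3 UMIs in any WT class outside the single barcode.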
